A study of Homo sapiens with 12 samples.

Results

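The genes described here are 46 genes of DNA replication and S phase, chosen by gene symbol from the 20030 genes of the deposited expression table, whose unit is FPKM, the fragments assigned to a gene scaled to its exon length and to the size of the library. All 46 were found, and all 46 passed the filter on low values in every comparison. They fall into 9 role groups, from the loading of the helicase at origins to the copying of chromatin behind the fork. Messenger RNA was sequenced in 12 libraries of MOLM-13 and THP-1 cells, human acute monocytic leukemia lines that both carry a rearrangement of the MLL gene. The 4 groups of 3 libraries were MOLM-13 with DMSO as control, MOLM-13 with JOA (Jiyuan oridonin A, a diterpenoid of the ent-kaurene class) at 0.5 μM, THP-1 with DMSO, and THP-1 with JOA at 2 μM, each for 48 h by the sample records, whereas a figure legend of the study names a longer time. Dose and cell line therefore differed together, so a difference between the lines in their response to JOA cannot be told apart from a difference in dose. Each line derives from the leukemia of 1 patient, so the lines are 2 cases and not samples of a disease class. The records do not say whether the 3 libraries of a group came from separate cultures, and the p-values then measure only the spread between these libraries.

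Before S phase, the origin recognition complex, CDC6 and CDT1 load the MCM2 to MCM7 helicase ring onto DNA, and MCM10, CDC45 and the GINS complex turn it on. The polymerases then copy both strands while the clamp PCNA, placed by replication factor C, holds them to the template, RPA coats the bare single strands, and FEN1 and LIG1 join the Okazaki fragments of the lagging strand. Transcription of most of these genes is driven by E2F factors once the retinoblastoma protein has been inactivated, so their RNA levels follow the share of cells that are cycling. In bulk RNA, fewer cells in S phase and less RNA per cell cannot be told apart.

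The promoters hold a feature that can be read directly. RefSeq promoters of GRCh38.p14, from 250 bases before to 50 bases after each annotated start, were matched by symbol to 40 of the 46 genes. CCNE2, GINS4, MCM4, MCM5, RPA2 and RPA3 had no entry. The E2F letters TTTCCCGC or TTTGGCGC, searched on both strands, were present in 19 of these 40 genes (47.5%), against 3.73% of the 14994 genes of the table with a promoter and 0 of 15 mitosis genes. The choice of the genes already drew on their being E2F targets, so this share describes the list and supports nothing further. The following stretches before the annotated start are shown because they belong to helicase, polymerase, clamp, nucleotide and E2F genes that are named below. Capitals mark the E2F letters or, in RRM2, the CCAAT letters bound by NF-Y.
MCM6: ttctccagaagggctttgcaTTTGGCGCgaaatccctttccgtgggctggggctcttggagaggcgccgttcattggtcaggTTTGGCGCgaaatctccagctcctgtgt
POLA1: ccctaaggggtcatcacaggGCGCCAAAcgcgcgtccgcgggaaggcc
PCNA: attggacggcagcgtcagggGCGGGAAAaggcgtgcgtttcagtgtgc
RFC3: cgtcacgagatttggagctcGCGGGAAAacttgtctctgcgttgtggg
DUT: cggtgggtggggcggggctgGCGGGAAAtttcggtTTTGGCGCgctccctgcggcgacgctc
E2F1: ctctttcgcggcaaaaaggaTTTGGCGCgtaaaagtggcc
RRM2: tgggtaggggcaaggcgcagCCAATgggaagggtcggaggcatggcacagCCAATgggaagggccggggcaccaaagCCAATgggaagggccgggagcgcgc
The MCM6 stretch (chr2:135876506-135876615, minus strand) held TTTGGCGC at 2 places, and that of DUT (chr15:48332135-48332196, plus strand) held 1 copy of each form. The stretches of PCNA (chr20:5126654-5126701, minus), RFC3 (chr13:33818074-33818121, plus), POLA1 (chrX:24693761-24693808, plus) and E2F1 (chr20:33686386-33686425, minus) held 1 match each. In PCNA, RFC3 and DUT the letters GCGGGAAA are TTTCCCGC read on the other strand, and in POLA1 GCGCCAAA is TTTGGCGC read on the other strand. RRM2 (chr2:10122596-10122697, plus) had 0 E2F matches and 3 CCAAT copies in a repeated unit. CCAAT was found in 24 of 40 genes (60%, against 42.1% of all genes). The CHR letters TTTGAA or TTCGAA, which mark many genes of mitosis, were found in 3 of 40 genes (7.5%, against 17.4% of all genes), while 11 of the 15 mitosis genes held them (73.3%). A match is a run of letters, not a measured binding site.

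The libraries within a line correlated at 0.987 or more on the log2 scale across genes. Read totals were not given, and from the size of the smallest FPKM steps the other MOLM-13 libraries had 0.896 to 0.916 of the depth of MOLM-13 control 1, while THP-1 libraries had 0.932 to 1.07 of the depth of THP-1 control 1. Of 8 monocytic leukemia markers, 7 were at 2.27 FPKM or more in all 12 libraries, and CD14 was low, at 0.0743 to 0.979 FPKM. Of the erythroid markers, HBB was at 0 in all 12 libraries, and HBA1 was at 0 in the MOLM-13 libraries and at 0 to 0.209 FPKM in the THP-1 libraries.

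Control cells of both lines expressed all 46 genes. PCNA, the sliding clamp, had the highest mean level over the 12 libraries (247 FPKM) and PRIM2, the large subunit of primase, the lowest (3.74 FPKM). THP-1 and MOLM-13 controls were compared by limma on log2(FPKM + 0.1). Here and below, called means past both thresholds, 0.05 for the p adjusted by Benjamini-Hochberg and 0.58 for the size of the log2 difference. In all, 4 of the 46 genes were called higher in THP-1 cells, where 25% of the 12635 genes tested were, and 7 were called lower, where 19% were. At any size of difference, 32 of the 46 passed the adjusted p, against 71.2% of all genes.

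The genes called higher in THP-1 cells were regulators of entry into S phase, the licensing factor CDC6 and a salvage kinase. E2F1, the transcription factor, was at 25.8, 29.2 and 26.4 FPKM in the THP-1 controls and at 12.6, 10.6 and 12.0 FPKM in the MOLM-13 controls, a log2 difference of 1.21 (SE 0.08, adjusted p 4.69e-06). TK1, which phosphorylates thymidine for DNA synthesis, was at 94.2, 85.0 and 83.7 FPKM against 43.7, 37.8 and 34.7 FPKM (log2 difference 1.18, SE 0.09, adjusted p 8.95e-06). CDC6, the loader of the MCM ring, was at 42.9, 38.4 and 36.4 FPKM against 23.4, 17.6 and 19.1 FPKM (log2 difference 0.97, SE 0.11, adjusted p 8.35e-05). In each of the 3, the lowest THP-1 control lay above the highest MOLM-13 control. CCNE1, cyclin E1, passed near the fold threshold, with a log2 difference of 0.58 (SE 0.12, adjusted p 0.00305).

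Of the 7 genes called lower in THP-1 cells, 5 encode parts of the fork itself. Most of the genes chosen here encode such parts, so 5 of 7 does not show a preference for fork genes. Such a preference was not tested. GINS4, a subunit of the GINS complex, was at 9.76, 9.29 and 8.84 FPKM in the THP-1 controls and at 24.6, 21.2 and 21.2 FPKM in the MOLM-13 controls (log2 difference −1.25, SE 0.08, adjusted p 2.76e-06). MCM4, a subunit of the helicase ring, was at 81.1, 81.0 and 74.0 FPKM against 195.5, 156.6 and 172.3 FPKM (log2 difference −1.15, SE 0.09, adjusted p 8.21e-06). PCNA was at 158.6, 168.8 and 155.1 FPKM against 385.8, 318.8 and 324.6 FPKM (log2 difference −1.09, SE 0.09, adjusted p 9.63e-06). POLD1, the catalytic subunit of polymerase delta, which works on the clamp, was lower as well. Its values were 21.2, 20.3 and 20.2 FPKM in THP-1 controls and 42.0, 41.9 and 43.1 FPKM in MOLM-13 controls (log2 difference −1.04, SE 0.05, adjusted p 7.86e-07). RRM2, the regulated subunit of ribonucleotide reductase, was at 58.7, 52.9 and 51.9 FPKM against 122.4, 103.6 and 100.6 FPKM (log2 difference −0.99, SE 0.09, adjusted p 1.91e-05). GMNN, or geminin, the inhibitor of CDT1, and POLA1, the catalytic subunit of polymerase alpha, had log2 differences of −0.92 (SE 0.11, adjusted p 9.36e-05) and −0.80 (SE 0.08, adjusted p 3.82e-05).

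Subunits of the helicase ring did not share a direction between the lines. In the helicase ring, MCM4 was called lower in THP-1 cells, whereas MCM2 (log2 difference 0.55, adjusted p 0.000506), MCM3 (0.53, adjusted p 0.000235) and MCM6 (0.28, adjusted p 0.00140) were higher in THP-1 cells below the fold threshold. MCM5 and MCM7 did not pass (0.17 and −0.15). In the GINS complex, GINS4 and GINS1 (−0.24, adjusted p 0.0348) were lower, and GINS2 and GINS3 did not pass (−0.20 and 0.26). The other genes not called lay between −0.56 for CCNE2, or cyclin E2, and 0.57 for POLE, the catalytic subunit of polymerase epsilon.

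**Figure D1:**
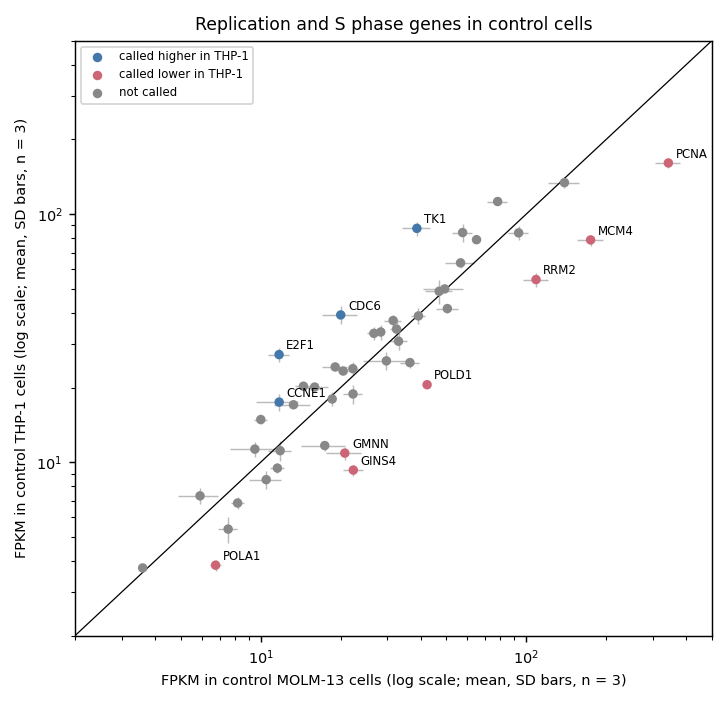
Mean FPKM of each of the 46 genes in the 3 control libraries of MOLM-13 cells (horizontal axis, log scale) and of THP-1 cells (vertical axis, log scale), with SD bars and the line of equal levels. The 4 genes called higher in THP-1 cells lie above the line and the 7 called lower, among them PCNA at 343 and 161 FPKM, lie below it.

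In MOLM-13 cells, JOA was compared with control to ask how the drug changes expression in this line. The mean was lower with JOA in 45 of the 46 genes, where 47.6% of the 11693 genes tested were lower, and the median log2 fold change was −0.12 against 0.01 for all genes. The sole exception was POLD2, the second subunit of polymerase delta (0.02). No gene passed the test on FPKM values. The study reported changed genes in both lines with DESeq at the same threshold values. The absence of calls here therefore holds for this test only. Among the 46 genes 0 were called, as in the whole table (0%), the largest change was −0.24 (GINS3), and the lowest adjusted p was 1.00. At an unadjusted p under 0.05, 6 of the 46 genes were lower (1.57% of all genes), namely ORC1, MCM6, POLA1, RFC3, RFC4 and RRM2. The 95% confidence intervals reached a median of 0.18 to either side, wider than the median change.

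The libraries with the same number deviated together in this line, and the comparison was repeated with the number as a block. With the replicate block, 19 of the 46 genes were lower at an unadjusted p under 0.05 (4.46% of all genes), and 0 passed the adjusted p at any fold (0% of all genes). The lowest adjusted p with the block was 0.330, for MCM6. In 25 of the 46 genes the value was lower with JOA in all 3 same-numbered pairs (15.7% of all genes), and in 0 it was higher in all 3 (18.5%). In 16 genes the 3 JOA values lay wholly below the 3 control values (4.55%), and in 0 wholly above (5.1%).

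Part of the difference stood in 1 library. Of the 6 MOLM-13 libraries, control 1 had the highest value in 39 of the 46 genes. The summed level of the 46 genes was 2142, 1818 and 1855 FPKM in controls 1 to 3 and 1820, 1775 and 1771 FPKM in JOA 1 to 3, so that control 2 lay below JOA 1. In the first pair the median log2 difference between JOA and control was −0.25 with 43 genes lower, in the second −0.04 with 32 lower, and in the third −0.08 with 38 lower. By the estimate above, control 1 was also the deepest library of the line. Without control 1 the median was −0.05 (0.01 for all genes), and 35 of 46 genes were lower in mean (45.3% of all genes). In that fit 2 were lower at an unadjusted p under 0.05 (1.6%). The JOA values then lay wholly below the 2 remaining controls in 16 genes (9.23%). Without both libraries numbered 1, the median was −0.06, 38 genes were lower in mean (47.6%), 26 were lower in both remaining pairs (25.2%), and 3 were lower at an unadjusted p under 0.05 with the block (3.57%). The part of control 1 and of its depth in the result beyond these values was not tested.

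**Figure D2:**
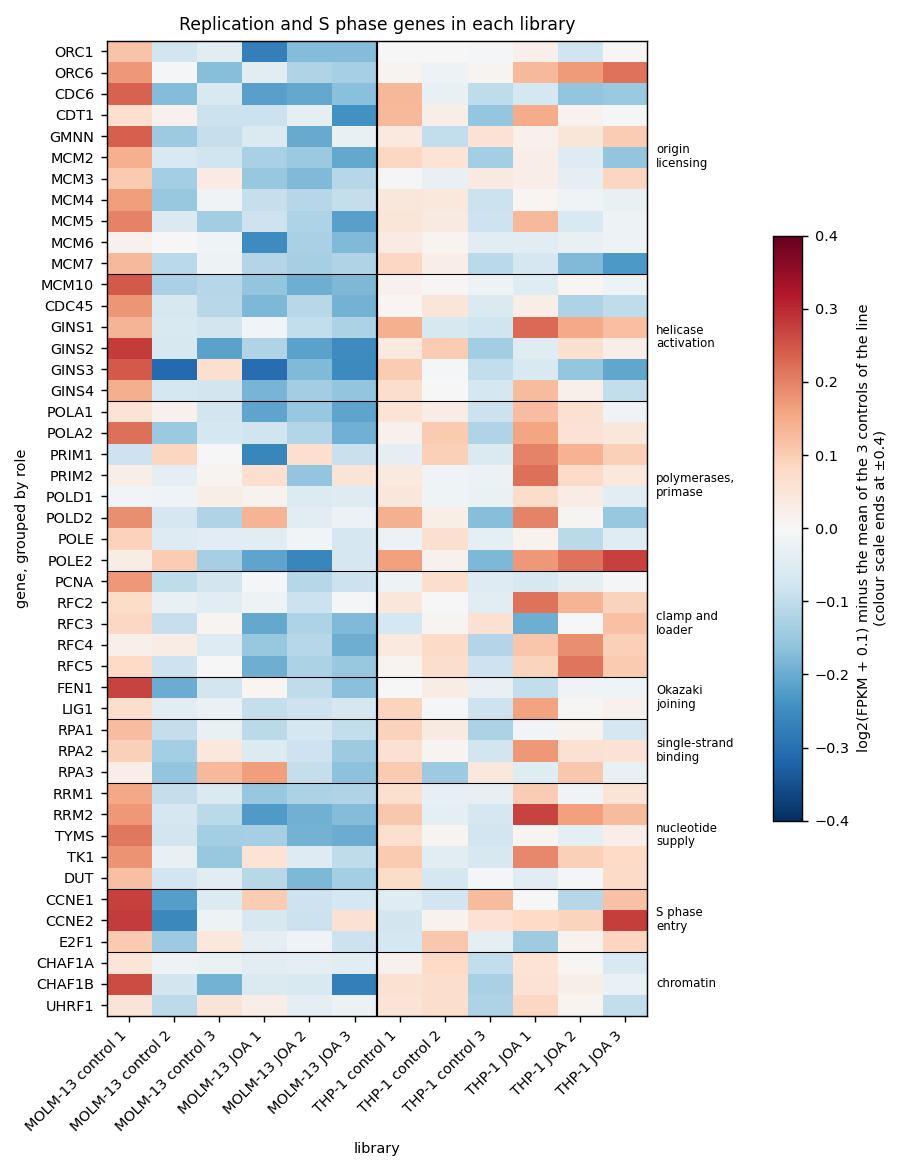
Value of each of the 46 genes (rows, grouped by role) in each of the 12 libraries (columns), as log2(FPKM + 0.1) minus the mean of the 3 controls of the same line, with blue below and red above that mean. MOLM-13 control 1 is red in nearly every row, and it had the highest MOLM-13 value in 39 of 46 genes, while the 3 JOA columns of MOLM-13 are mostly pale blue.

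Among the 11 genes of origin licensing, log2 fold changes in MOLM-13 cells lay between −0.21 and −0.10, and the JOA values were wholly below the controls in ORC1, MCM2, MCM6 and MCM7. ORC1, the largest subunit of the origin recognition complex, was at 15.7, 13.8 and 14.04 FPKM in the controls and at 12.0, 12.8 and 12.8 FPKM with JOA (log2 fold change −0.21, SE 0.07). MCM6 was at 65.8, 64.9 and 64.3 FPKM in the controls and at 54.6, 59.4 and 57.5 FPKM with JOA (−0.19, SE 0.06), and here control 1 was close to the other controls. The remaining members of the group, CDC6, CDT1, GMNN, ORC6, MCM3, MCM4 and MCM5, overlapped between control and JOA.

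The 6 genes of helicase activation had log2 fold changes between −0.24 and −0.08, the lowest group median (−0.17). MCM10, CDC45, which joins the MCM ring in the active helicase, and GINS4 had JOA values wholly below control. GINS3 had the largest mean change of all, but its values of 11.2, 7.55 and 9.83 FPKM in the controls and 7.58, 8.30 and 7.86 FPKM with JOA overlapped, with control 2 the lowest of the 6 (−0.24, SE 0.13).

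The polymerases and primase differed less in mean. Their 8 log2 fold changes ran from −0.19 to 0.02 with a median of −0.07, and POLA1 alone among them did not overlap. POLA1 was at 7.03, 6.84 and 6.42 FPKM in the controls and at 5.82, 6.07 and 5.83 FPKM with JOA (−0.19, SE 0.07). PRIM2, its partner in the primase complex, was at 3.66, 3.50 and 3.62 FPKM and at 3.77, 3.21 and 3.72 FPKM (−0.01, SE 0.09), with JOA 1 the highest of the 6. The remaining genes here were POLA2, PRIM1, POLD1, POLD2, POLE and POLE2, whose values overlapped.

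In the clamp and its loader, 3 of 5 genes lay wholly below control (4.55% of all genes), all of them small subunits of replication factor C. RFC3 was at 12.2, 10.8 and 11.6 FPKM in the controls and at 10, 10.6 and 10.2 FPKM with JOA (−0.17, SE 0.07). RFC4 was at 28.8, 28.9 and 27.3 FPKM against 25.5, 26.1 and 24.7 FPKM (−0.15, SE 0.06), and RFC5 at 8.66, 7.72 and 8.18 FPKM against 7.14, 7.49 and 7.36 FPKM (−0.16, SE 0.07). In RFC4 the gap did not rest on control 1, which was not its highest control. PCNA itself was at 385.8, 318.8 and 324.6 FPKM in the controls and at 339.6, 315.5 and 322.2 FPKM with JOA (−0.07, SE 0.09), and without control 1 its log2 fold change turned to 0.02. RFC2 was at −0.04.

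Nucleotide supply showed 3 of 5 genes wholly below control (4.55% of all genes), RRM1, RRM2 and DUT, the last of which removes dUTP before it enters DNA. RRM2 was at 122.4, 103.6 and 100.6 FPKM in the controls and at 92.6, 94.8 and 96.2 FPKM with JOA (−0.20, SE 0.08). TYMS, which makes thymidylate, and TK1 were at −0.17 and −0.03 and overlapped. Across the group the log2 fold changes lay between −0.20 and −0.03.

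In the last 4 groups most genes overlapped. For Okazaki fragments, LIG1, the ligase, did not overlap (−0.08, SE 0.06), whereas FEN1, the flap nuclease, was at 58.9, 42.6 and 46.4 FPKM in the controls and at 49.1, 45.5 and 43.5 FPKM with JOA (−0.09, SE 0.12) and turned to 0.05 without control 1. RPA2, a subunit of the single-strand binding complex, was at 38.9, 33.1 and 37.5 FPKM and at 35.1, 34.4 and 32.9 FPKM (−0.09, SE 0.07), and RPA1 (−0.09) and RPA3 (−0.03) overlapped too. E2F1 was at 12.6, 10.6 and 12.0 FPKM in the controls and at 11.4, 11.6 and 11.02 FPKM with JOA (−0.05, SE 0.08), and CCNE1 and CCNE2 were at −0.02 and −0.03, so none of the 3 genes of S phase entry separated. Of the chromatin genes, CHAF1A, the large subunit of the CAF-1 histone chaperone, did not overlap at a change of −0.04, UHRF1, which guides the copying of DNA methylation, was at −0.01, and CHAF1B was at 7.04, 5.57 and 5.12 FPKM against 5.62, 5.62 and 4.83 FPKM (−0.13, SE 0.12). Without control 1, the log2 fold changes of E2F1 and CHAF1B turned to 0.01 and 0.00.

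The 19 genes with E2F letters in the promoter had a median log2 fold change of −0.14 in MOLM-13 cells, 19 of them lower in mean and 6 without overlap. The 21 genes with a promoter but no such letters had a median of −0.10, with 20 lower and 9 without overlap. Over all genes tested in this line, 47.6% were lower in mean and 4.55% lay wholly below control. In THP-1 cells the medians of the 19 and the 21 genes were 0.00 and 0.02. A link between the letters and the change was not tested.

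**Figure D3:**
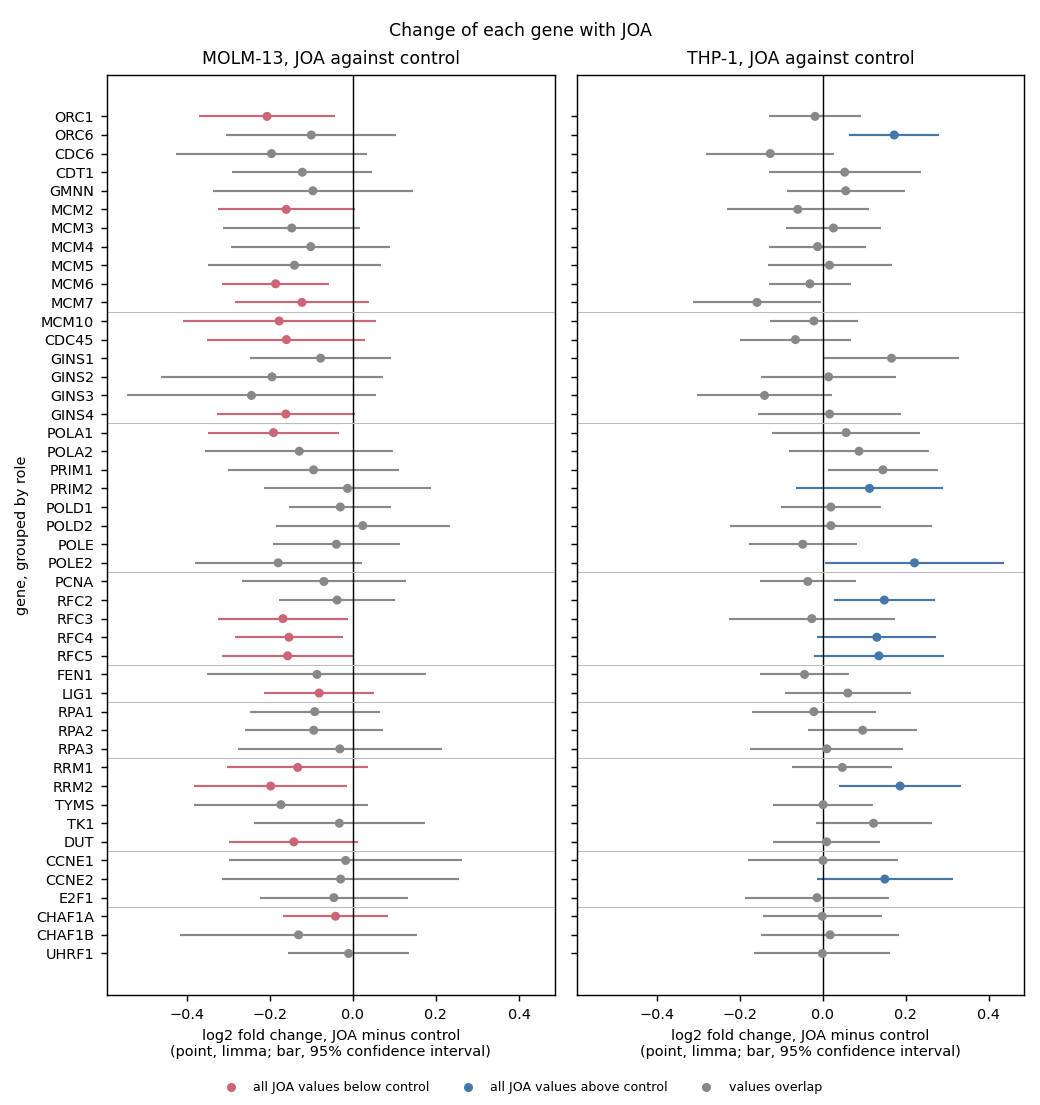
Log2 fold change of each of the 46 genes (rows, grouped by role) with JOA in MOLM-13 cells (left) and THP-1 cells (right), with the 95% confidence interval from limma, coloured by whether the 3 JOA values lay wholly below (16 genes in MOLM-13) or wholly above (8 genes in THP-1) the 3 control values. Points sit left of 0 for 45 genes in MOLM-13 cells and on both sides of 0 in THP-1 cells.

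In THP-1 cells at 2 μM JOA, the genes did not lie to 1 side. The mean was higher with JOA in 29 of the 46 genes (56.7% of the 12712 genes tested) and the median log2 fold change was 0.02, as for all genes (0.02). With median-ratio scaling 18 genes were higher and the median was −0.01. The values over all genes with that scaling are not given here, so a shift particular to the 46 genes cannot be read from it. Among the 46 genes 0 were called, against 17 genes of the whole table (0.134%), and with the replicate block 0 against 161 (1.27%). The 46 changes ran from −0.16 to 0.22, and the 95% confidence intervals reached a median of 0.15 to either side. At an unadjusted p under 0.05, 6 genes were higher, namely ORC6, GINS1, PRIM1, POLE2, RFC2 and RRM2 (10.9% of all genes), and MCM7 was lower (5.99%). With the block, 10 were higher at an unadjusted p under 0.05 (16.5%).

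The JOA values lay wholly above the controls in 8 genes (14.6% of all genes), which were ORC6, PRIM2, POLE2, RFC2, RFC4, RFC5, RRM2 and CCNE2, and wholly below in 0 (8.81%). In same-numbered pairs, 15 genes were higher in all 3 (29.3%) and 4 were lower in all 3 (19.4%). The summed level was 1778, 1742 and 1646 FPKM in controls 1 to 3 and 1776, 1718 and 1720 FPKM in JOA 1 to 3, and the groups overlapped. THP-1 control 3 had the lowest of the 6 values in 24 of the 46 genes. Without it the median log2 fold change was −0.01, 23 genes were higher in mean and 1 was higher at an unadjusted p under 0.05. The same values over all genes are not given for that fit, so a change particular to the 46 genes cannot be read from them.

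RRM2 was the 1 gene that passed an adjusted p in this line, below the fold threshold and with the block alone. It was at 58.7, 52.9 and 51.9 FPKM in the controls and at 65.6, 61.0 and 59.4 FPKM with JOA. The log2 fold change was 0.19 (SE 0.06, 95% confidence interval 0.04 to 0.33), with an adjusted p of 0.201 without the block and 0.0305 with it, where 8.06% of all genes passed. All 3 JOA values exceeded the highest control, and the value was higher in each of the 3 pairs. The other nucleotide genes lay between 0.00 for TYMS and 0.12 for TK1.

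Of the clamp and its loader, 3 of 5 genes had JOA values wholly above control (14.6% of all genes), all of them loader genes. RFC2 was at 24.0, 23.3 and 22.6 FPKM in the controls and at 27.1, 25.6 and 24.8 FPKM with JOA (log2 fold change 0.15, SE 0.05, adjusted p 0.216). RFC4 was at 34.4, 35.3 and 30.8 FPKM against 36.1, 38.0 and 35.7 FPKM (0.13, SE 0.06), and RFC5 at 6.90, 7.18 and 6.46 FPKM against 7.28, 7.94 and 7.36 FPKM (0.14, SE 0.07). RFC3 and PCNA were at −0.03 and −0.04, with PCNA at 158.6, 168.8 and 155.1 FPKM in the controls and at 153.8, 156.7 and 159.9 FPKM with JOA.

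In polymerases and primase, 7 of 8 means were higher with JOA, where 56.7% of all genes were higher. The lowest adjusted p of the group from limma was 0.256, or 0.114 with the block. POLE2, the second subunit of polymerase epsilon, was at 6.00, 5.41 and 4.71 FPKM in the controls and at 6.04, 6.23 and 6.49 FPKM with JOA (log2 fold change 0.22, SE 0.09, adjusted p 0.284), and the lowest JOA value exceeded the highest control by a small margin. PRIM2 was at 3.85, 3.71 and 3.68 FPKM against 4.38, 3.96 and 3.86 FPKM (0.11, SE 0.08), again with a narrow gap. The other genes of the group lay between −0.05 for POLE and 0.14 for PRIM1.

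The 11 licensing genes ran from −0.16 to 0.17, with MCM7 and ORC6 at the ends. ORC6, the smallest subunit of the origin recognition complex, was at 20.2, 19.8 and 20.2 FPKM in the controls and at 22.0, 22.6 and 23.4 FPKM with JOA (0.17, SE 0.05, adjusted p 0.132), the lowest adjusted p of the 46 genes in this line without the block. MCM7 was at 88.9, 85.4 and 77.9 FPKM against 80.2, 74.2 and 71.5 FPKM (−0.16, SE 0.07, adjusted p 0.280), and its groups overlapped. The other genes of the helicase ring lay between −0.06 for MCM2 and 0.03 for MCM3.

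GINS1 and GINS3, of the same complex, had opposite signs in this line, at 0.17 and −0.14. GINS1 was at 20.8, 17.98 and 17.8 FPKM in the controls and at 22.0, 20.9 and 20.4 FPKM with JOA (SE 0.07, adjusted p 0.287), and JOA 3 lay below control 1. CCNE2 was at 11.1, 11.8 and 12.2 FPKM against 12.3, 12.4 and 14.2 FPKM (0.15, SE 0.07), without overlap, whereas CCNE1 was at 0.00 and E2F1 at −0.01.

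The remaining groups stayed near 0. LIG1 was at 25.3, 23.6 and 22.5 FPKM in the controls and at 26.6, 23.9 and 24.0 FPKM with JOA (0.06, SE 0.07), and RPA2 at 26.3, 25.4 and 23.9 FPKM against 28.4, 26.3 and 26.2 FPKM (0.10, SE 0.06). Both were higher in all 3 pairs, and in both the control and JOA values overlapped. CHAF1B was at 7.62, 7.66 and 6.67 FPKM against 7.61, 7.42 and 7.16 FPKM (0.02, SE 0.07), and CHAF1A, UHRF1, FEN1, RPA1 and RPA3 lay between −0.04 and 0.01.

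The difference of the JOA effect between the lines was tested as an interaction of cell line and treatment over the 12 libraries. Among the 46 genes 0 passed the adjusted p, as in all 12626 genes tested (0%). With the replicate block 6 genes of the table passed (0.0475%), and 0 of them were among the 46. At an unadjusted p under 0.05 the effect was higher in THP-1 than in MOLM-13 cells in 10 of the 46 genes (4.61% of all genes), or 16 with the block (9.08%). Without both MOLM-13 libraries numbered 1 these counts were 5 and 8, and without THP-1 control 3 the count without the block was 5. The shares over all genes in these reduced fits are not given here, so a drop particular to the 46 genes cannot be read from the counts.

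POLE2 and RRM2 had the largest differences of effect, at 0.40 (SE 0.13, 95% confidence interval 0.11 to 0.69, adjusted p 0.534) and 0.38 (SE 0.11, 95% confidence interval 0.15 to 0.62, adjusted p 0.457). POLE2 was at 7.69, 8.08 and 6.86 FPKM in the MOLM-13 controls and at 6.48, 6.26 and 7.18 FPKM with JOA, and these overlapped. RRM2, RFC4 and RFC5 were the 3 genes whose control and JOA values did not overlap in either line, lower with JOA in MOLM-13 cells and higher in THP-1 cells, as were 0.484% of the 11355 genes tested in both lines. Their interactions did not pass, at adjusted p-values of 0.457, 0.465 and 0.511, or 0.0998, 0.0857 and 0.163 with the block. Over the 46 genes, 17 were lower in mean in both lines (24.1% of all genes tested in both) and 28 were lower in MOLM-13 and higher in THP-1 cells (23.4%). In same-numbered pairs, 8 of the 46 were lower in all MOLM-13 pairs and higher in all THP-1 pairs (3.28%). The log2 fold changes of the lines correlated across genes at 0.19 by Pearson and 0.18 by Spearman, over genes that are not independent.

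**Figure D4:**
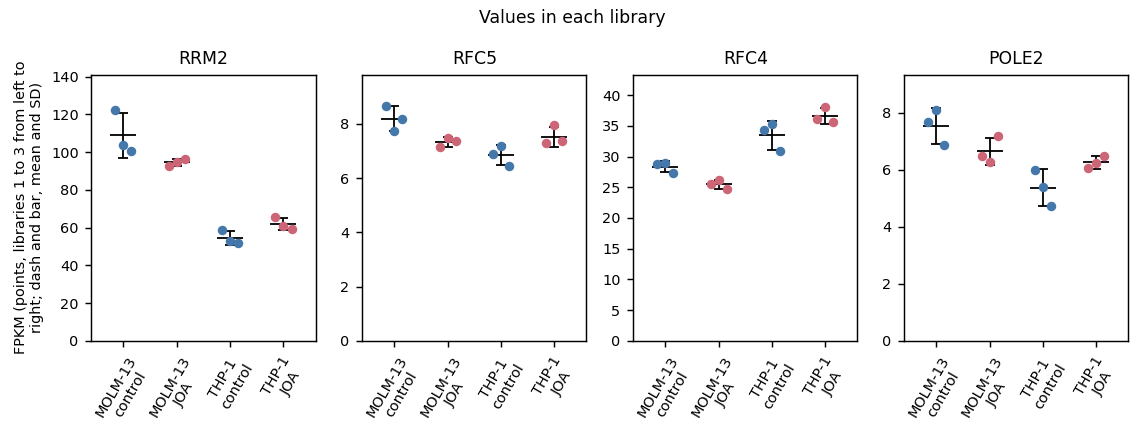
FPKM of RRM2, RFC5, RFC4 and POLE2 in the 12 libraries (points, libraries 1 to 3 from left to right within each group), with the mean and SD of each group of 3. In the first 3 panels the JOA points lie below the controls in MOLM-13 cells and above them in THP-1 cells, while POLE2 overlaps in MOLM-13 cells, where JOA 3 stands at 7.18 FPKM.

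Other genes of the cell cycle were read in the same fits. In MOLM-13 cells 47.6% of all genes tested were lower in mean with JOA. Of 41 other replication genes, 35 were lower in mean with JOA in MOLM-13 cells with a median of −0.09, and 0 were called. The 2 with the largest changes were ATAD5, which unloads the clamp (−0.27, SE 0.07, adjusted p 1.00), and MCM8, a relative of the helicase subunits that acts in DNA repair (−0.21, SE 0.08). ATAD5 was at 5.90, 5.601 and 5.68 FPKM in the controls and at 4.46, 4.77 and 4.99 FPKM with JOA, without overlap. All 12 E2F and S phase regulators were lower in mean (median −0.15, E2F8 −0.19 and CCNA2, or cyclin A2, −0.18), and so were all 18 mitosis genes (median −0.12, AURKB −0.24 and KIF11 −0.19). None of these lists had a called gene. Control 1 had the highest summed level in each list. The other replication genes summed to 960.8, 862.6 and 881.9 FPKM in controls 1 to 3. With JOA they summed to 865.5, 854.4 and 852.7 FPKM. The regulators summed to 353.6, 306.4 and 314.9 FPKM against 288.5, 299.6 and 294.6 FPKM. The mitosis genes summed to 639.7, 580.5 and 569 FPKM against 551.4, 546.5 and 557.2 FPKM. The part of control 1 in these lists was not tested. Of 6 cell cycle inhibitors tested, CDKN1A, or p21, had the largest change, at 100.2, 101.2 and 98.8 FPKM in the controls and 124.2, 115.7 and 117.0 FPKM with JOA (0.25, SE 0.06, adjusted p 1.00), and RB1 was at −0.12. The 10 housekeeping genes had a median of −0.03 (TBP −0.14).

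In THP-1 cells, 24 of the 41 other replication genes were higher in mean, where 56.7% of all genes tested were. Their median was 0.04 against 0.02 for all genes, and 0 were called. ORC4, a subunit of the origin recognition complex, was at 2.94, 2.63 and 2.88 FPKM in the controls and at 3.39, 3.26 and 3.30 FPKM with JOA, a log2 fold change of 0.23 (adjusted p 0.202, and 0.0972 with the block). The E2F and S phase regulators had a median of −0.01 (CDK2 −0.16 and RBL1 0.15) and the mitosis genes 0.04 (CENPF −0.11 and AURKA 0.10). Of 7 cell cycle inhibitors, CDKN2D, which blocks CDK4 and CDK6, was at 0.51 (SE 0.09, adjusted p 0.0755, and 0.0162 with the block) and CDKN1C at −0.24. The housekeeping gene RPLP0 was at −0.25, beyond the range of the 46 genes.

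**Figure D5:**
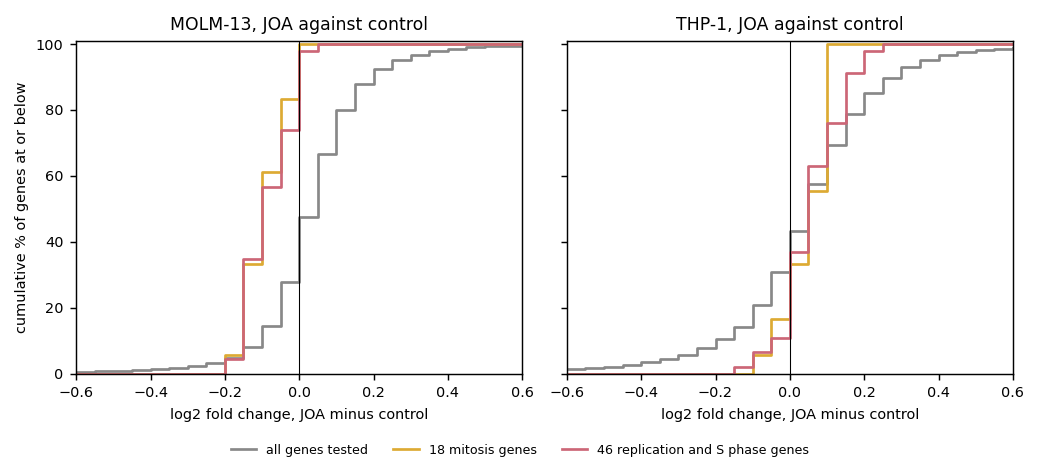
Cumulative percentage of genes at or below each log2 fold change with JOA, in steps of 0.05, for all genes tested, the 18 mitosis genes and the 46 replication and S phase genes, in MOLM-13 cells (left) and THP-1 cells (right). In MOLM-13 cells both gene lists lie left of all genes (medians −0.12 and −0.12 against 0.01), whereas in THP-1 cells the 3 curves cross near 0.

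Markers of other cell types were read beside these values. The summed level of 4 epithelial markers was 8.31 to 10 FPKM in MOLM-13 controls and 7.75 to 8.09 FPKM with JOA, of which KRT18 made up most and EPCAM was at 0, and KRT8 did not overlap (log2 fold change −0.59, adjusted p 1.00). In THP-1 cells the same markers summed to 4.87, 4.58 and 0.832 FPKM in the controls and to 0.649, 1.42 and 1.89 FPKM with JOA, so that controls 1 and 2 stood above the other libraries. The 8 monocytic leukemia markers summed to 1994 to 3232 FPKM in MOLM-13 controls and 2527 to 3424 FPKM with JOA. LYZ alone made up most of these sums, at 1873 to 3106 FPKM in the controls and 2408 to 3292 FPKM with JOA. With the block 3 of the 8 markers passed the adjusted p in THP-1 cells, ITGAM (0.71, adjusted p 0.0348), MPO (−0.64, adjusted p 0.00659) and CD33 (0.29, adjusted p 0.0342). Of these, CD33 was below the fold threshold. Lymphoid markers summed to 1.68 to 4.11 FPKM and 2.27 to 2.49 FPKM in MOLM-13 cells, and fibroblast markers stayed at or below 0.411 FPKM in that line. In THP-1 cells the lymphoid markers summed to 0.605 to 1.08 FPKM in the controls and 0.505 to 0.722 FPKM with JOA, and the fibroblast markers summed to at most 1.34 FPKM in the controls and 0.663 FPKM with JOA, and COL1A1 was lower in mean with JOA (−0.86, adjusted p 0.464). Their part in the values of the 46 genes was not tested.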

How the data were processed

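Stranded mRNA libraries from both lines were sequenced in paired-end mode. The authors deposited 1 table of FPKM values, scaled to the exon length of the gene and the mapped fragments of the library. The submitters' processing notes name Trimmomatic, HISAT2, Cufflinks, HTSeq and build hg38, and the annotation is not given in the sources used here. FPKM values are not counts and hold no read totals, so count tests were not run and no counting interval is given.

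Genes whose FPKM averaged 0.1 or more in the libraries of a fit were tested on log2(FPKM + 0.1) with limma 3.58.1 in R 4.3.3 (eBayes with a trend), and p-values were adjusted by Benjamini-Hochberg over all genes tested. The pseudocount understates the change of low genes. Calls needed an adjusted p under 0.05 with a log2 fold change of 0.58 or more in size, or the adjusted p alone for the interaction. The procedure was tested on simulated data. The 46 genes, the role groups and the other gene lists were chosen with earlier results of these data known, so no list was tested as a set.

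Replicate numbers come from the sample titles. After group means were removed, the correlation of same-numbered control and JOA libraries was 0.264 to 0.398 in MOLM-13 and 0.139 to 0.319 in THP-1 cells, every pair above 0.1, against −0.259 to 0.0168 for other combinations, so the number was also fitted as a block. Values in each library are given for the gene of each role group with the largest change in each line, genes without overlap in both lines, called genes, the highest and lowest level, and the largest differences between lines and of effect. Of other lists, called genes or else the 2 largest changes are named, apart from some that are not reported here. Alternatives covered the pseudocount, the filter, TPM and median-ratio scaling, the variance trend, the block, 1 fit on all 12 libraries and leaving out libraries.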

Additional observations from a re-analysis of the deposited data

Results flagged for a closer look

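In 8 of the 46 genes every same-numbered pair was lower with JOA in MOLM-13 cells and every pair was higher with JOA in THP-1 cells, as in 3.28% of the 11355 genes tested in both lines. The difference of the log2 fold change, THP-1 minus MOLM-13, was 0.38 for RRM2, 0.29 for RFC5, 0.28 for RFC4, 0.25 for POLA1, 0.24 for GINS1, 0.24 for PRIM1, 0.18 for RRM1 and 0.14 for LIG1. The interaction test was passed by none of the 8, with adjusted p-values from limma of 0.457 to 0.776 without the replicate block and 0.0857 to 0.320 with it. Lines and doses differed together in this comparison and cannot be told apart.

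Of the genes named from the other lists, KIF11 (0.25), MCM8 (0.35), RBL1 (0.31) and TBP (0.23) showed the same opposite order in all pairs, and CDKN1A showed the reverse order, higher with JOA in all MOLM-13 pairs and lower in all THP-1 pairs (−0.42). Their adjusted interaction p-values were 0.504, 0.451, 0.387, 0.660 and 0.194, and none passed. TBP is a housekeeping gene.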

How the results depend on the processing

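The counts of called genes among the 46 stayed at 0 for JOA in both lines under every alternative run. With TPM or median-ratio scaling 10 of the 46 genes were lower in MOLM-13 cells at an unadjusted p under 0.05. With 1 fit on all 12 libraries there were 11, and with the replicate block 19 (4.46% of all genes). Without both libraries numbered 1, an alternative chosen after the data were seen, the count was 1 (1.45% of all genes). With the block it was 3 (3.57%). In THP-1 cells the genes higher at that p numbered 10 with TPM scaling, 3 with median-ratio scaling and 3 without the trend. With the replicate block there were 10 (16.5% of all genes). Median-ratio scaling gave a median of −0.0107 with 18 genes higher. Genes called in the whole table were 1 in MOLM-13 cells with no filter, and in THP-1 cells 8 with a pseudocount of 1, 0 with no filter, 1 without the trend, 161 with the block and 51 in 1 fit on all 12 libraries. For the interaction, 1 gene of the table passed with a pseudocount of 1, TPM or median-ratio scaling, 3 with no filter and 6 with the block, or 6 without the MOLM-13 libraries numbered 1. The 46 genes at an unadjusted interaction p under 0.05 numbered 16 with the block (9.08% of all genes) and 5 without those libraries. Where no share over all genes stands beside a count, a shift particular to the 46 genes cannot be read from it. The cause of the shifts between alternatives was not tested.

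Leaving out 1 library at a time gave, in MOLM-13 cells, medians of −0.17 to −0.05, 35 to 46 genes lower in mean, 1 to 12 at an unadjusted p under 0.05 (2 without control 1, 12 without control 2, 11 without control 3, 1 without JOA 1, 3 without JOA 3) and 16 to 25 without overlap (25 without control 2). In THP-1 cells it gave medians of −0.00701 (without control 3) to 0.0440, 23 to 32 genes higher, 1 to 6 at that p (1 without control 3 or JOA 1, 2 without JOA 2, 3 without control 2), 8 to 13 without overlap (13 without control 1), and 0 to 1 called genes in the table (1 without control 1). The interaction count ran from 5 (without THP-1 control 3) to 16 (without MOLM-13 control 2). Without MOLM-13 control 1, 1.6% of all genes were lower at an unadjusted p under 0.05, and 9.23% lay wholly below the controls. For the other fits here no share over all genes is given, so a shift particular to the 46 genes cannot be read from the counts. Single log2 fold changes in MOLM-13 cells ran from −0.186 to 0.0485 for FEN1, −0.119 to 0.00616 for E2F1, −0.226 to 0.000225 for CHAF1B and −0.120 to 0.0174 for PCNA, with the highest value of each without control 1, and from −0.0536 to 0.0591 (without JOA 2) for PRIM2. In THP-1 cells CHAF1B ran from −0.0464 (without control 3) to 0.0522, was at −0.00214 without JOA 1, and stood at −0.00919 with median-ratio scaling. Control libraries of the lines correlated at 0.0698 to 0.131 by number, not all above 0.1, and with the replicate block 11 of the 46 genes were called between lines, against 10 to 14 with 1 library left out.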
